A study of Mus musculus with 6 samples.

Results

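The genes Mdga2, Cntnap5a, Cntnap5c and Ptprk, which encode adhesion molecules of the cell surface, gave 28 of the 10652 circular RNAs (circRNAs) measured in mouse hippocampus. They were collected as every circRNA whose list of Ensembl host genes holds one of these 4 genes, which gave 9 circRNAs for Mdga2, 10 for Cntnap5a, 7 for Cntnap5c and 2 for Ptprk. The 4 genes had been picked because they stood out in earlier results for stressed against control mice in the same libraries, so their differences between these groups are given as a description, without a test. Of the 28 circRNAs, 27 were classed as exonic and 1, mmu_circRNA002402 of Mdga2, as intronic.

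The 6 libraries came from hippocampus of male C57BL/6J mice of 8 to 10 weeks, purchased as adults and assigned to the groups at random. The labels name no transgene and no drug in either group. The 3 libraries of the chronic unpredictable stress (CUS) group came from mice that met changing mild stressors, such as restraint, cold swimming, lost food or water and a tilted cage, over 4 weeks, and the 3 Control libraries came from mice without the schedule. Whether each library held RNA from 1 mouse or from a pool was not stated in the labels, so the spread is that between libraries. RNA was selected for poly(A) before sequencing, although circRNAs lack a poly(A) tail, and how this affected their recovery was not tested.

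A circRNA forms when the end of a downstream exon is spliced back to the start of an upstream exon, which closes the transcript into a ring, and neurons are known for many such rings. Mdga2 encodes a membrane-anchored protein of the immunoglobulin superfamily that binds neuroligins and so keeps them from neurexins, the partners across the synaptic cleft, which restrains synapse formation. Cntnap5a and Cntnap5c encode contactin-associated proteins, single-pass members of the neurexin superfamily. Ptprk encodes a receptor tyrosine phosphatase whose outer part binds a like molecule on the neighbouring cell, and it is known as an adhesion phosphatase rather than as a classical synapse organizer. A circRNA level says nothing by itself about the linear messenger RNA or the protein of its host.

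The deposited table gives log10 values. All levels below are 10 to the deposited value, with 0 kept at 0, and the unit was not stated. A host sum is the sum of these levels over the circRNAs of a gene, and levels are not corrected for circRNA length, so genes are not ranked against each other. Control libraries held 4329 to 4606 circRNAs above 0 and CUS libraries 3991 to 4273, while the summed level was nearly equal, from 1990260 to 2050720. The number of reads behind a level is unknown, so a value of 0 does not mean that the circRNA was missing from the tissue. Libraries resembled each other weakly circRNA by circRNA, with Pearson r of log2 levels across the 3896 circRNAs above 0 in at least 3 libraries of 0.274 to 0.319 within a group and 0.259 to 0.304 between groups. Of 10 listed neuronal hosts 9 gave circRNAs, as did 5 of 8 dentate granule cell hosts. The same held for 4 of 9 astrocyte, 4 of 10 oligodendrocyte, 1 of 8 vascular and choroid and none of 7 microglial hosts. These lists were written with earlier results of these data known, so the counts are not compared between cell types. Among dentate hosts, Prox1 gave 1 circRNA, above 0 only in Control replicate 2 (95.8) and CUS replicate 3 (538). Calb1, Dsp and Tdo2 gave none.

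All 4 hosts are long genes with little exonic sequence. Mdga2 lies on the minus strand of chromosome 12, from 66466060 to 67222549 (GRCm38, GENCODE vM21), and exons of its longest coding transcript fill 1.3% of it. Cntnap5a lies on chromosome 1 from 115684756 to 116587323, Cntnap5c on chromosome 17 from 57769570 to 58410355 and Ptprk on chromosome 10 from 28074820 to 28597397, all on the plus strand. These are positions of the genes, not of the circRNAs. Per 100 kb of gene, Mdga2 gave 1.19 circRNAs, Cntnap5a 1.11, Cntnap5c 1.09 and Ptprk 0.383. The first 3 genes therefore had close densities, and Ptprk a lower one. Among the 179 hosts of at least 500 kb the median was 4 circRNAs, and 31 of them gave more than Mdga2, 24 more than Cntnap5a, 45 more than Cntnap5c and 125 more than Ptprk.

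Most of the 28 circRNAs were seen in few libraries. Of the 28, 11 were above 0 in 1 library, 9 in 2 libraries and 6 in 3 libraries, 1 in 5 and 1 in all 6. Of all circRNAs, 36.9% were above 0 in 1 library and 7.55% in all 6. The circRNA found in all 6 libraries was mmu_circRNA000439 of Cntnap5a, and that found in 5 was mmu_circRNA004740 of Cntnap5c. Control replicates 1 to 3 held 12, 13 and 12 of the 28, and CUS replicates 1 to 3 held 6, 7 and 8. By group, 15 of the 28 (53.6%) were above 0 in Control only, 5 in CUS only and 8 in both, where 27% of all circRNAs were above 0 in Control only and 23.4% in CUS only. Since the genes were chosen from this contrast, nothing is read from that surplus. The fewer circRNAs above 0 in CUS libraries overall go the same way, and their part in it was not tested.

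**Figure D1:**
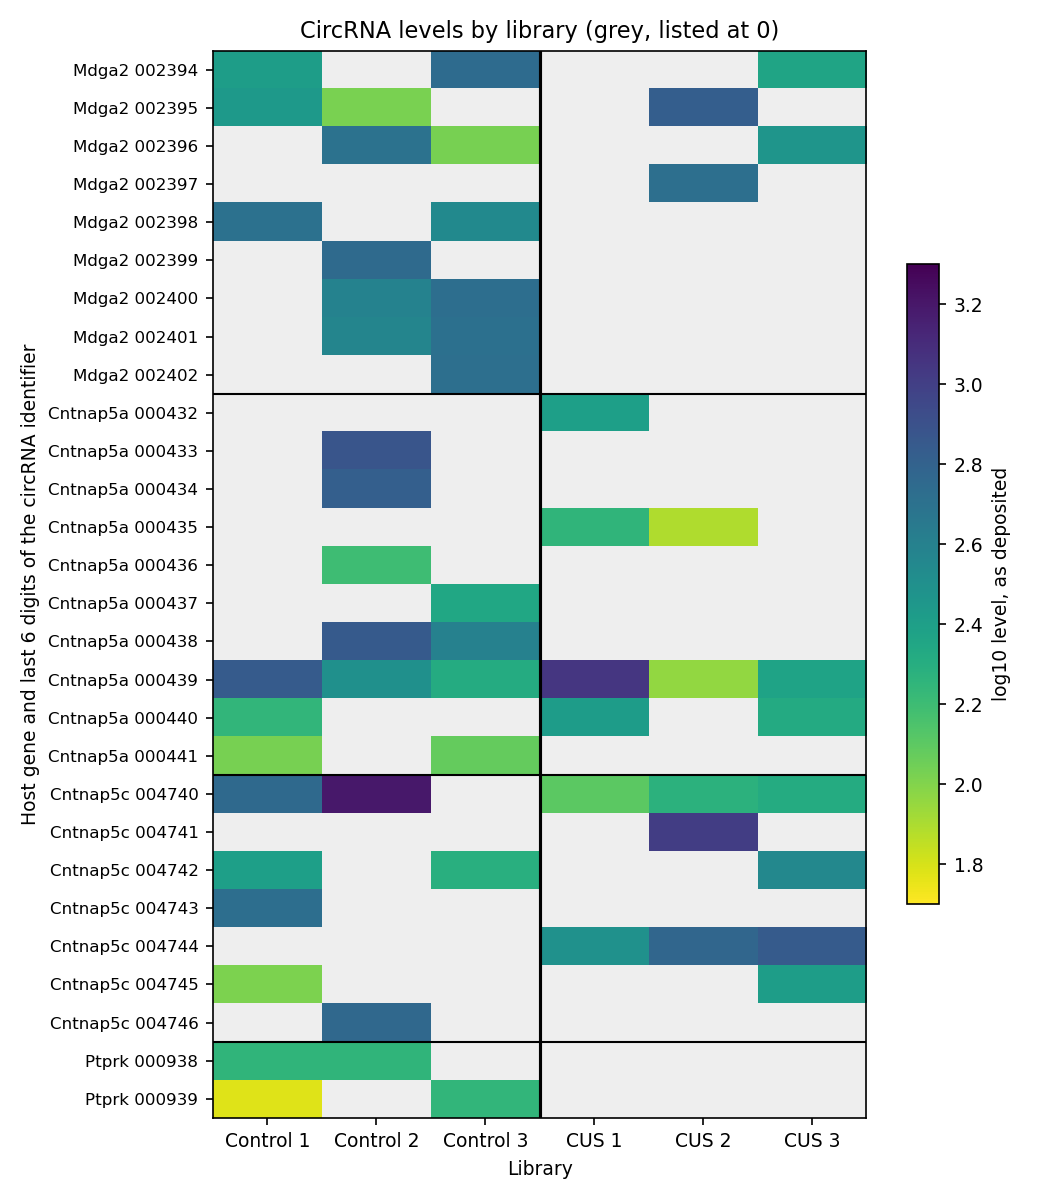
CircRNA levels (log10, as deposited) for each of the 28 circRNAs (rows, grouped by host gene) in the 6 libraries (columns), with grey for values listed at 0. Only mmu_circRNA000439 of Cntnap5a is coloured in all 6 libraries, mmu_circRNA004744 of Cntnap5c is coloured in the 3 CUS libraries only, and both Ptprk circRNAs are grey in all 3 CUS libraries.

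Mdga2, the brake on neuroligin and neurexin pairing, had fewer circRNAs and a lower host sum in CUS than in most Control libraries. The Mdga2 host sum was 1041, 1921 and 2564 in Control replicates 1 to 3, a mean of 1842 ± 765 (SD, n = 3), and 0, 1178 and 522 in CUS replicates 1 to 3. The groups overlapped, since CUS replicate 2 lay above Control replicate 1. In a bulk sample, fewer cells of a type and less of an RNA per cell cannot be told apart. On the log2(host sum + 45.5) scale the fitted difference of CUS minus Control was -2.49 with an SE of 0.90. That size rests on CUS replicate 1 at 0, since without this library the difference was -1.09. The difference was also smaller with a pseudocount 5 times as large (-1.66) and larger with 0.2 times the pseudocount (-3.28). Of all libraries, CUS replicate 1 held the fewest circRNAs above 0 (3991) and had the highest minimum level above 0 (50.1). The part of this low detection in its Mdga2 value of 0 was not tested. Across all hosts tested with limma, 0 of 2227 (0%) passed an adjusted p under 0.05, with 127 at an unadjusted p under 0.05. Of the hosts tested, 3.14% were lower and 2.56% higher in CUS at an unadjusted p under 0.05.

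The lower Mdga2 sum did not come from a single circRNA. Control replicates 1 to 3 held 3, 5 and 6 of the 9 Mdga2 circRNAs, and CUS replicates 1 to 3 held 0, 2 and 2. No Mdga2 circRNA was above 0 in more than 3 libraries, and none carried more than 14.5% of the level summed over all 6. The leading circRNA was a different one in each of the 5 libraries that held any. It was mmu_circRNA002398 (507), mmu_circRNA002399 (555) and mmu_circRNA002394 (553) in Control replicates 1 to 3, and mmu_circRNA002395 (662) and mmu_circRNA002396 (291) in CUS replicates 2 and 3.

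The 3 Mdga2 circRNAs found in both groups each had 2 Control libraries and 1 CUS library above 0. mmu_circRNA002394 was at 256, 0 and 553 in Control against 0, 0 and 231 in CUS. mmu_circRNA002395 was at 278, 106 and 0 in Control against 0, 662 and 0 in CUS, so its highest value was in a CUS library. mmu_circRNA002396 was at 0, 494 and 106 in Control against 0, 0 and 291 in CUS. In all 3 the groups overlapped. Fitted log2 differences were -1.28 (SE 1.35), -0.20 (SE 1.33) and -0.81 (SE 1.27), each smaller than its SE.

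mmu_circRNA002396 was the only 1 of the 28 with a second host identifier, that of the small nucleolar RNA gene Gm23826. Gm23826 is annotated at chr12:66561254-66561372 on the minus strand (GRCm38), inside intron 9 of the 17-exon Mdga2 transcript and outside every annotated Mdga2 exon. Small nucleolar RNAs guide chemical modification of other RNAs, and many are processed from introns. The intron is 18.1 kb long. Without this circRNA the difference of Mdga2 group means was -1172, against -1275 with it.

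The other Mdga2 circRNAs were each seen in 1 group. mmu_circRNA002397 was at 516 in CUS replicate 2 and at 0 elsewhere. mmu_circRNA002398 was at 507 and 346 in Control replicates 1 and 3, mmu_circRNA002399 at 555 in Control replicate 2, and the intronic mmu_circRNA002402 at 516 in Control replicate 3. mmu_circRNA002400 and mmu_circRNA002401 were above 0 in the same 2 libraries with nearly equal levels, at 391 and 376 in Control replicate 2 and 529 and 513 in Control replicate 3. They were at most 3.88% apart, and whether they share reads was not tested. Counting the pair once gave a difference of Mdga2 group means of -974.

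**Figure D2:**
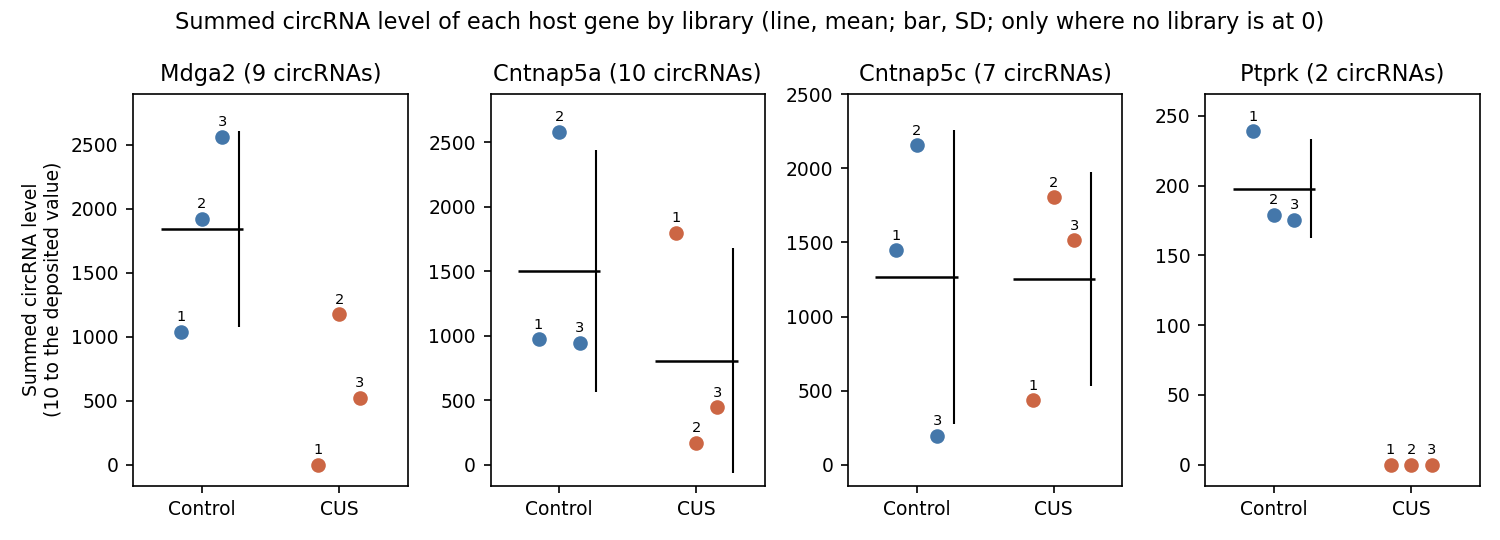
Summed circRNA level (10 to the deposited value) of each host in each library, numbered by replicate, with the mean as a line and the SD as a bar where no library is at 0; each panel has its own scale. CUS replicate 1 is at 0 for Mdga2, the groups overlap for Mdga2, Cntnap5a and Cntnap5c, and the 3 CUS libraries are at 0 for Ptprk.

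Cntnap5a and Cntnap5c come from a small family of close copies, with Cntnap5b as the other member, so reads from a shared stretch could be given to the wrong gene. Their longest coding transcripts, each of 24 exons, were 90.3% identical over 3912 aligned bases, and 1.40% of the 50-base words of Cntnap5a occur unchanged in Cntnap5c. The longest identical run, 86 bases, spans the junction of exons 10 and 11 in both genes. It is shown because a read lying within it cannot tell the genes apart; capitals mark the run and lower case the 15 bases on either side, 5′ to 3′ on the coding strand, from GENCODE vM21 transcripts (GRCm38).
Cntnap5a: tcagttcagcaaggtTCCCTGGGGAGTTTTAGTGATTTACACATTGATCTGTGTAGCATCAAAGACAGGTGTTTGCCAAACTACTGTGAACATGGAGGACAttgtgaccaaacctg
Cntnap5c: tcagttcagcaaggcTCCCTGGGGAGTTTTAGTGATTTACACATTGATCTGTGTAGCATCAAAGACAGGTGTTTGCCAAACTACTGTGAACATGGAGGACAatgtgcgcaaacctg
The stretch covers chr1:116188368-116188435 and chr1:116221842-116221889 in Cntnap5a, and chr17:58104701-58104768 and chr17:58138613-58138660 in Cntnap5c. Counted from 1 at the first coding base, with the base of Cntnap5a first, the flanks differ by T1593C, T1680A, A1685C and C1686G. Cntnap5a and Cntnap5b shared a run of 91 bases. For Mdga2 the longest run shared with Mdga1 was 15 bases, and for Ptprk that with Ptprm was 18, with no 50-base word in common in either pair. These runs are of linear coding sequence, whereas a circRNA junction joins the end of a downstream exon to the start of an upstream one. Whether the sequences at circRNA junctions are shared between the copies was not analysed here. The division of levels between Cntnap5a and Cntnap5c is uncertain to that extent.

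Cntnap5a had overlapping groups with wide spread. Its host sum was 973, 2582 and 947 in Control replicates 1 to 3 against 1798, 169 and 446 in CUS, giving means of 1500 ± 936 and 805 ± 872 (SD, n = 3 each). Control replicate 2 and CUS replicate 1 were far above the other libraries of their groups. The fitted log2 difference was -1.26 with an SE of 0.76. The difference of group means, -696, fell in size to -155 without Control replicate 2 and to -378 without CUS replicate 2, and reached -1193 without CUS replicate 1.

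A single circRNA carried Cntnap5a in most libraries. mmu_circRNA000439 was at 690, 315 and 207 in Control against 1111, 91.5 and 236 in CUS, and held 38.4% of the level summed over the 6 libraries. Its highest and its lowest value were both in CUS libraries, and its fitted log2 difference was -0.20 with an SE of 1.07. It led the host in Control replicate 1 and in all 3 CUS libraries. mmu_circRNA000440, the other Cntnap5a circRNA seen in both groups, was at 176, 0 and 0 in Control against 259, 0 and 209 in CUS, also overlapping.

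The high Cntnap5a sum of Control replicate 2 came from circRNAs that were rare elsewhere. There mmu_circRNA000433 was at 751, mmu_circRNA000434 at 656 and mmu_circRNA000436 at 156, and all 3 were at 0 in the other 5 libraries. mmu_circRNA000438 was at 703 in this library and 396 in Control replicate 3. With only the circRNAs above 0 in at least 2 libraries, the difference of Cntnap5a group means was -183. mmu_circRNA000433 and mmu_circRNA000434 differed by 12.7% in the only library that held them, and whether they share reads was not tested.

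The remaining Cntnap5a circRNAs were low. mmu_circRNA000441 was at 106 and 120 in Control replicates 1 and 3, and mmu_circRNA000437 at 223 in Control replicate 3. mmu_circRNA000432 was at 248 in CUS replicate 1, and mmu_circRNA000435 at 180 and 78.0 in CUS replicates 1 and 2.

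Cntnap5c had nearly equal group means but a different leading circRNA in most Control and CUS libraries. Its host sum was 1446, 2158 and 194 in Control replicates 1 to 3 against 436, 1805 and 1514 in CUS, giving means of 1266 ± 994 and 1252 ± 721 (SD, n = 3 each). The groups overlapped throughout. The difference of means was -14.5 while the fitted log2 difference was 0.27 with an SE of 0.74, so these differ in sign. Leaving out a library moved the difference of means from -551 (without Control replicate 3) to 432 (without Control replicate 2), and it was 393 without CUS replicate 1.

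mmu_circRNA004744 was listed at 0 in all 3 Control libraries and was at 310, 594 and 693 in CUS replicates 1 to 3. With every Control library at 0, a fold cannot be given, and the circRNA passed the filter of 3 libraries above 0 only through CUS, so its groups had to differ. Of the 3896 circRNAs tested, 1.87% were at 0 in all Control libraries and 5.78% had every CUS library above every Control library. With limma, 0 of them (0%) passed an adjusted p under 0.05, 234 were at an unadjusted p under 0.05, and of those tested, 2.75% were higher and 3.26% lower in CUS at that level. The reverse patterns, every CUS library below every Control library and all CUS libraries at 0, held for 5.08% and 2.41% of circRNAs.

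The leading Cntnap5c circRNA of the Control libraries moved less uniformly. mmu_circRNA004740 was at 567, 1581 and 0 in Control against 127, 188 and 207 in CUS. Control replicates 1 and 2 were above, and Control replicate 3 below, every CUS library, so the groups overlapped, with a fitted log2 difference of -0.72 and an SE of 1.30. mmu_circRNA004740 made up 39.2% and 73.3% of the host in Control replicates 1 and 2. mmu_circRNA004744 made up 70.9% and 45.8% in CUS replicates 1 and 3. CUS replicate 2 was led by mmu_circRNA004741, at 1022 there and at 0 in the other 5 libraries.

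Other Cntnap5c circRNAs varied library by library. mmu_circRNA004742 was at 249, 0 and 194 in Control against 0, 0 and 359 in CUS, and was the only Cntnap5c circRNA in Control replicate 3. mmu_circRNA004745 was at 104 in Control replicate 1 and 256 in CUS replicate 3. mmu_circRNA004743 was at 526 in Control replicate 1 and mmu_circRNA004746 at 577 in Control replicate 2, and both were at 0 elsewhere.

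The copy Cntnap5b, with 5 circRNAs, was at 225, 260 and 309 in Control against 369, 188 and 1432 in CUS. CUS replicate 3 alone stood high, and the groups overlapped. A sum over Cntnap5a, Cntnap5b and Cntnap5c keeps a level that was given to the wrong copy. Reads dropped or counted for several copies would still change it, and how shared reads were handled is unknown. The summed levels were 2643, 5000 and 1450 in Control against 2603, 2163 and 3392 in CUS. These overlapped as well, with means of 3031 ± 1806 and 2719 ± 623 (SD, n = 3 each).

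**Figure D3:**
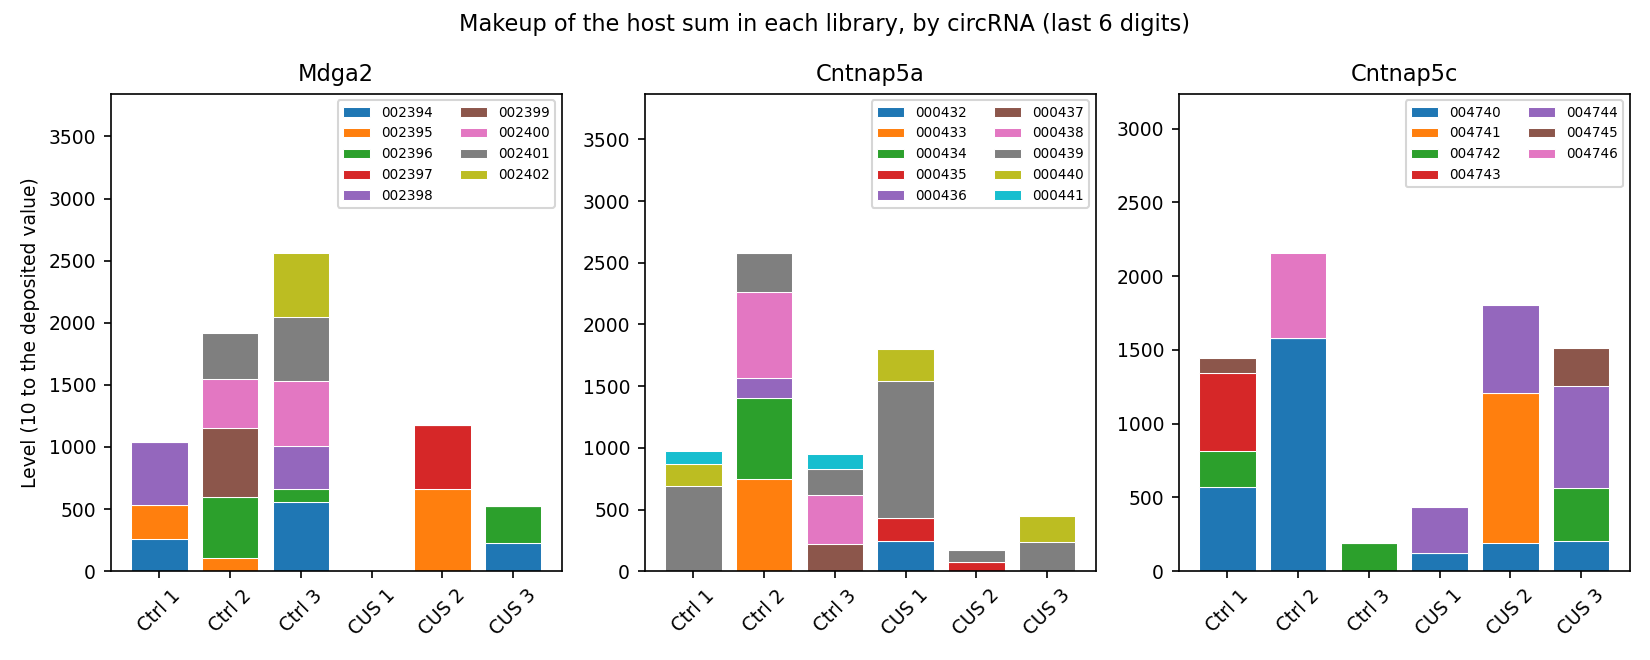
Host sums of Mdga2, Cntnap5a and Cntnap5c in each library (bars, 10 to the deposited value), split by circRNA in colour. Mdga2 has another largest block in each library that holds any, mmu_circRNA000439 recurs in every Cntnap5a bar, and the Cntnap5c bars hold mmu_circRNA004744 in the 3 CUS libraries only.

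Ptprk, the adhesion phosphatase, was above 0 in every Control library and in no CUS library. mmu_circRNA000938 was at 179, 179 and 0 in Control replicates 1 to 3, and mmu_circRNA000939 at 60.4, 0 and 176. Each was thus seen in 2 Control libraries, and only their sum of 239, 179 and 176 (198 ± 35.7, SD, n = 3) was above 0 in all 3. The groups of the host sum did not overlap, as for 5.75% of hosts tested with CUS below, and 1.39% of hosts tested were at 0 in all CUS libraries, with 1.12% at 0 in all Control libraries. The host passed the filter of 3 libraries above 0 only through Control, so it had to differ, and its single circRNAs did not pass. Its levels were low. They lay below the median level of circRNAs above 0 in each Control library, which was 297, 301 and 314, and the lowest level listed was 41.0 to 45.2 in Control libraries and 45.7 to 50.1 in CUS libraries.

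Of all 28 circRNAs, 8 (28.6%) were above 0 in at least 3 libraries, beside 36.6% of all circRNAs, and so entered the comparison across all circRNAs. These were 3 of Mdga2, 2 of Cntnap5a and 3 of Cntnap5c. Among these 8, mmu_circRNA004744 alone had groups that did not overlap, which the filter fixed because it passed only through CUS. Of all 3896 tested, 5.78% did not overlap with CUS above and 5.08% with CUS below. As the genes were chosen from this comparison, the count is given for completeness.

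Pairs of host sums of the 4 genes had Pearson r from -0.23 to 0.62 across libraries. Both groups entered each r, so it includes the difference for which the genes were chosen. With so few libraries it shows neither joint movement nor its absence. As a description over 6 libraries, each with 1 depth and scaling for all hosts, Pearson r of log2(host sum + 45.5) was -0.20 between Mdga2 and Cntnap5a, 0.21 between Mdga2 and Cntnap5c and -0.23 between Cntnap5a and Cntnap5c. Ptprk, with its 3 CUS libraries at 0, had r = 0.62 with Mdga2, 0.51 with Cntnap5a and -0.08 with Cntnap5c. Among 2226 other hosts tested, those most like Mdga2 were Abi2, Hmbox1 and Hif1a (r = 0.99, 0.99 and 0.98). Abi2, which encodes a regulator of actin branching, was at 468, 1203 and 1096 in Control against 0, 724 and 315 in CUS. Most like Cntnap5a were Dtna, Tpst1 and Wdr44 (0.98, 0.96 and 0.94), and Dtna, the gene of alpha-dystrobrevin, shared the high values of Control replicate 2 (2123) and CUS replicate 1 (1512). Most like Cntnap5c were Wdr78, Cluh and Axin2 (0.98, 0.96 and 0.96). Most like Ptprk were Wrap53, Ktn1 and Srrm2 (1.00, 1.00 and 0.99), each listed at 0 in all 3 CUS libraries. Like Ptprk, these hosts passed the filter only through Control, as did the 1.39% of hosts tested at 0 in all CUS libraries. Their shared zeros make r high, so nothing is read from it. The r values of the most alike hosts are the highest of many values over few libraries.

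Related adhesion genes were then taken from 4 lists that left out the 4 hosts, to see whether their relatives differed between the groups. Of 86 listed genes, 48 gave 205 circRNAs and 37 had a host sum that could be tested. In CUS, the fitted value was higher for 20 of the 37 and lower for 17, with a median log2 difference of 0.23, beside 1065 higher and 1162 lower of all 2227 hosts with a median of -0.06. With limma, 0 of the 37 passed an adjusted p under 0.05 and 2, Cntn6 and Ntng2, had an unadjusted p under 0.05, a share close to that of all hosts (127 of 2227). Hosts of other cell types were summed beside them. Astrocyte sums were 1710 to 2642 in CUS and 1085 to 1525 in Control, which did not overlap, with 4 of 9 listed hosts giving circRNAs and none from the defining markers Gfap and Aqp4. The 4 hosts did not go one way. Gpc5 was at 377, 1056 and 801 in Control against 348, 296 and 179 in CUS, without overlap and lower in CUS. Slc1a2, Slc4a4 and Gli3 had higher means in CUS with overlapping groups. None of the 4 had an unadjusted limma p under 0.05. Oligodendrocyte sums were 1482 to 1873 in CUS and 930 to 1523 in Control, with 4 of 10 hosts. Neuronal sums were 20312 to 27040 and 22867 to 27055, and dentate granule cell sums 5436 to 7095 and 2495 to 6013. Of 8 tested neuronal hosts 3 were higher and 5 lower in CUS, and of 4 dentate hosts 3 were higher and 1 lower. Grin2b (higher), Grm5 (lower) and the dentate host Rfx3 (higher) had an unadjusted limma p under 0.05, none an adjusted one. They were 2 of 8 tested neuronal and 1 of 4 tested dentate hosts, beside 127 of 2227 of all hosts. These lists were written with earlier results of these data known, so nothing is read from that share. Rfx3 was at 1195, 1788 and 1426 in Control against 4395, 2910 and 3158 in CUS. The part of these cell type hosts in the differences of adhesion hosts was not tested.

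Among partners of MDGA proteins, neurexins and neuroligins, 3 of 9 tested hosts were higher and 6 lower, with a median of -0.08. Adgrl3, a latrophilin gene of adhesion receptors, was at 2187, 3875 and 2671 in Control against 2565, 4204 and 4123 in CUS, with overlap. Nlgn1, which encodes a ligand that MDGA2 binds, was at 321, 95.8 and 625 in Control against 271, 492 and 454 in CUS, also overlapping, and is named here after its values were seen. Of the other listed neuroligins, Nlgn2 was above 0 only in CUS replicate 1 (445). Nlgn3 was above 0 only in Control replicate 1 (251) and CUS replicate 2 (880). Neither was above 0 in enough libraries to be tested. Mdga1, the only other MDGA gene, gave no circRNA in the table.

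Among contactins and contactin-associated proteins, 5 of 8 tested hosts were higher and 3 lower, with a median of 0.44. Cntn6, the gene of a contactin, was at 261, 514 and 718 in Control, with no CUS library above 0 (limma unadjusted p = 0.0149, adjusted p = 0.737). Like Ptprk, it passed the filter only through Control, so its groups could not overlap and its p lends no support. Every CUS library was below every Control library in 5.75% of hosts tested. Cntn5, a contactin gene too, was at 3136, 1001 and 2569 in Control against 2303, 2235 and 2648 in CUS, inside the Control range. Cntnap4, a contactin-associated gene like Cntnap5a, was at 686, 686 and 1731 in Control against 1185, 2310 and 1180 in CUS, with overlap.

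Among receptor tyrosine phosphatases, 6 of 9 tested hosts were higher and 3 lower, with a median of 0.46. Ptprd, a presynaptic phosphatase of the LAR class, was at 1741, 3290 and 2878 in Control against 3824, 2851 and 1378 in CUS, with means closer than the spread (2636 ± 803 and 2684 ± 1231, SD, n = 3 each). Ptprr, the gene of a phosphatase that acts on MAP kinases, was at 1301, 1127 and 420 in Control against 2459, 218 and 1066 in CUS. The phosphatases closest in class to Ptprk were named after their values were seen. Ptprm was at 237, 0 and 1673 in Control against 304, 955 and 120 in CUS, Ptprt at 0, 582 and 0 against 410, 525 and 304, and Ptpru at 0, 214 and 197 against 1017, 551 and 174. In none of these did the groups separate, and all 3 were above 0 in every CUS library, unlike Ptprk.

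Among ligands of presynaptic phosphatases and other organizers, 6 of 11 tested hosts were higher and 5 lower, with a median of 0.23. Ntng2, which encodes a netrin-G that binds a postsynaptic partner, was at 925, 1059 and 1676 in Control against 2650, 2015 and 4175 in CUS. Every CUS library lay above every Control library, a fitted log2 difference of 1.22 with an SE of 0.50 (limma unadjusted p = 0.0183, adjusted p = 0.737). Hosts not overlapping with CUS above made up 5.66% of all tested. Ncam2, a neural cell adhesion gene, was at 2888, 2070 and 4133 in Control against 3264, 4454 and 4156 in CUS, and Cadm1, a synaptic adhesion gene, at 2388, 3109 and 2436 against 2185, 3163 and 4262. Both overlapped.

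**Figure D4:**
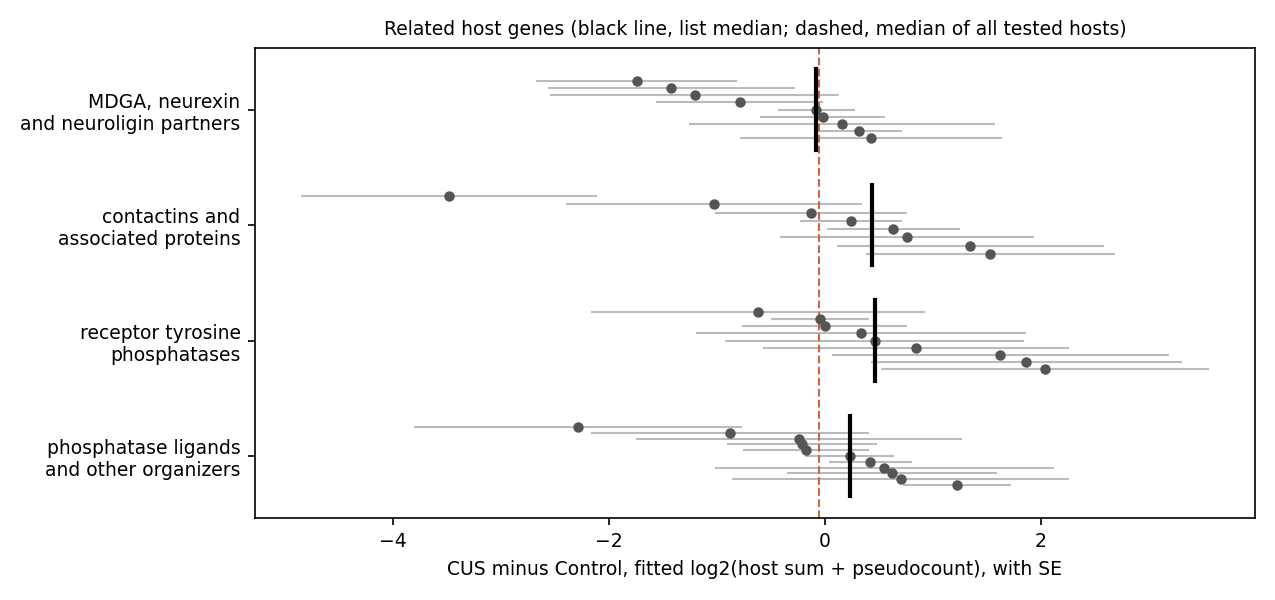
Fitted difference of CUS minus Control in log2(host sum + 45.5) for each tested related host (points, with SE) in 4 lists, with the list median as a black line and the median of all tested hosts (-0.06) as a dashed line. List medians lie between -0.08 and 0.46, and the host farthest from 0 is Cntn6 in the contactin list, whose value depends on the pseudocount because its CUS libraries are at 0.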

How the data were processed

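The authors deposited 1 table of circRNAs with a log10 value per library, host identifiers and a class. Stranded libraries with molecular identifiers were made from poly(A) RNA, per the labels' protocols. The mm9 build, DESeq, StringTie and edgeR are named without a role, per the submitters' processing notes, and the circRNA caller and unit were not given in the sources used here. After taking 10 to each value, 100% of levels under 300 steps lay within 0.05 of a whole multiple of a step specific to the library, with a lowest value of 17 steps, as whole numbers scaled per library would be, and reads per step are unknown.

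Groups and replicate numbers came from sample titles. Host identifiers were named with GENCODE vM21, where 4467 of 4483 matched. Of 786 circRNAs with several hosts, 583 went to their only protein-coding host and the rest, with 658 without a host, were left out of host sums. Limma 3.58.1 (R 4.3.3; trend, Benjamini-Hochberg, threshold 0.05) was run on log2(level + 45.5) for features above 0 in at least 3 of 6 libraries. The pseudocount was the median lowest level above 0. A run on simulated data used only hosts above 0 in all 6 libraries, with the same spread for every host. It did not cover features with libraries at 0. P-values set the group difference against the spread between libraries, which limma estimates partly from the other features. Coding sequences were aligned with Biopython 1.88. Python 3.11.15, numpy 2.4.6, pandas 2.3.3 and matplotlib 3.10.9 were also used.

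The genes, lists and rules were chosen with earlier results of these data known. Named relatives were the 2 of highest mean per list and those at an unadjusted p under 0.05, of which 1 is not reported here, and the 3 most like hosts per gene were named by Pearson r. Alternatives were other pseudocounts, filters, scalings, no trend, a replicate block, single-host circRNAs and leaving out each library.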

Additional observations from a re-analysis of the deposited data

How the results depend on the processing

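Under all alternatives run, limma called 0 circRNAs and 0 host sums at an adjusted p under 0.05. The counts at an unadjusted p under 0.05, 234 circRNAs and 127 hosts, were 32 and 53 among features above 0 in all 6 libraries, where fewer are tested, and 94 to 135 and 80 to 105 when a library was left out. Of the relatives, 10 were higher and 9 lower with that filter. The counts were 20 and 17 with the main filter of at least 3 libraries above 0, and 26 and 22 with no filter. When a library was left out, 18 to 24 relatives were higher and 13 to 17 lower. Their median stayed above 0, from 0.04 with 5 times the pseudocount to 0.29 without CUS replicate 2. Leaving out a library, the difference of group means ranged from -1676 to -914 for Mdga2, -1193 to -155 for Cntnap5a, -551 to 432 for Cntnap5c and -209 to -177 for Ptprk. The Cntnap5c difference was also above 0 with equal summed levels (3.20), quantile normalization (3.07) and circRNAs above 0 in at least 2 libraries (12.7), and its log2 difference was -0.70 without Control replicate 3. The causes were not tested. Counting close pairs once, chosen after seeing the data, gave -974 for Mdga2 and -462 for Cntnap5a.

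Replicate numbers are shared by the groups but give no sign of pairing, with correlations of deviations from -0.0252 to -0.0109 for libraries of the same number. With the replicate block, differences of means were the same by construction (Mdga2 -1275, Cntnap5a -696, Cntnap5c -14.5, Ptprk -198), 20 relatives were higher and 17 lower, and 215 circRNAs and 126 hosts had an unadjusted p under 0.05. Unknown reads per level limit all statements on circRNAs listed at 0.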
